A study of Homo sapiens with 16 samples.

Results

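The siRNAs siCAG and siGGGGGC were compared directly with each other in PC3 cells, a cell line from human prostate cancer, with no control siRNA between them. The comparison rests on 4 of the 16 libraries of the series, chosen by their labels: PC3 cells transfected with siCAG for 24 h or 48 h, and PC3 cells transfected with siGGGGGC for 24 h or 48 h. The labels name the latter siMxy in the titles and siGGGGGC in the treatment field. All 4 libraries share the wild-type line and a dose that the labels give as 1 nM and the study's methods as 10 nM. Cells transfected with siNT1, a nontargeting siRNA, and mock-treated cells gave the other 4 PC3 libraries, which enter the fit and are given beside the results. HeyA8 ovarian cancer cells with the same treatments gave the remaining 8. The study asks how short toxic seeds in siRNAs and miRNAs kill cancer cells. Each siRNA and time point has 1 library, so an siRNA has 2 replicates that differ in time. The fit removes the change from 24 to 48 h that the PC3 groups share. Its standard errors and p-values thus rest on how far that change differs between groups, together with technical variation. Nothing in the labels says that the libraries came from separate cultures. The study's methods, which do not name siCAG, describe duplicate wells and separate wells lysed at 24 h and 48 h. RNA-seq reads were counted per gene, between 27937092 and 29382549 reads in each of the 4 libraries.

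An siRNA loads 1 strand into an Argonaute protein, which cuts RNAs that pair with the whole strand and, as a miRNA does, lowers RNAs that pair with its seed alone, the bases near the 5′ end of the strand. Sites for seed pairing lie mostly in 3′ UTRs. The seed that gives siGGGGGC its name, GGGGGC at positions 2 to 7, pairs with GCCCCC. The sequence of siCAG is not given in the sources used here. A run of CAG pairs with a run of CTG, so CTG repeats were counted in the coding sequence and the 3′ UTR of each gene.

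The sequences below illustrate the 2 motifs by which genes were classed. They are read from hg38 with the transcripts of GENCODE v44, 5′ to 3′ on the strand of the gene, with the CTG run or GCCCCC in capitals. In RefSeq (GRCh38.p14), 2 of 2370 mature human miRNAs carry GGGGGC at positions 2 to 7, and they share this seed with siGGGGGC. Both lie on the plus strand of chromosome 11, miR-1237-5p at chr11:64368651-64368671 and miR-4488 at chr11:61508599-61508616, and are shown with bases 2 to 8 in capitals.
hsa-miR-1237-5p: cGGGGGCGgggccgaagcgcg
hsa-miR-4488: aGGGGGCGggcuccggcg

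The CTG runs shown are from genes with the lowest ratios of siCAG to siGGGGGC among called genes with a mean over 1000 normalized counts. They are the 10 CTG of RPL14 in the coding part of exon 6 (chr3:40462030-40462059, plus strand), the 6 of LRRC59 in the coding part of exon 7 (chr17:50383141-50383170, minus strand), the 6 of MLEC in coding exon 1 (chr12:120687339-120687368, plus strand), the 6 of HTRA1 in coding exon 1 (chr10:122461677-122461706, plus strand), the 4 of ICMT in coding exon 1 (chr1:6235732-6235761, minus strand), and the 7 of APLN in the 3′ UTR, exon 3 (chrX:129646197-129646226, minus strand). The reference sequence is shown, and the repeat lengths of PC3 cells were not measured.
RPL14: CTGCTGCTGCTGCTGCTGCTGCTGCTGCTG
LRRC59: ctgaagCTGCTGCTGCTGCTGCTGctattt
MLEC: ctgcgaCTGCTGCTGCTGCTGCTGccgccg
HTRA1: ctcccgCTGCTGCTGCTGCTGCTGgcggcg
ICMT: ctcaacgcgCTGCTGCTGCTGctctatcgg
APLN: aacgCTGCTGCTGCTGCTGCTGCTGcttaa

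The GCCCCC sites shown, each the most 5′ one in the 3′ UTR, are from genes with high ratios in the same set. They are those of HMGA1 in exon 6 (chr6:34244948-34244977, plus strand), EPN1 in exon 11 (chr19:55695600-55695629, plus strand), FSCN1 in exon 5 (chr7:5605562-5605591, plus strand), BTBD2 in exon 9 (chr19:1986399-1986428, minus strand) and TGM2 in exon 13 (chr20:38130174-38130203, minus strand).
HMGA1: tccgctcccaccGCCCCCaccccttcccca
EPN1: ggggtggctgggGCCCCCacccattccccc
FSCN1: ggcgggaggcaaGCCCCCttgcctttcaaa
BTBD2: tctgctgctgggGCCCCCccaccacgcggt
TGM2: agcctgctgagaGCCCCCaccttgatccca

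The labelled line was checked against markers. The keratins KRT8, KRT18 and KRT19 were at 3715 to 14300 normalized counts in the 8 PC3 libraries, and HOXB13, a transcription factor of the prostate lineage, was at 2483 to 15100. KLK3 and KLK2, the secreted prostate kallikreins, were at 0 in all 8 libraries. The T cell marker CD3E was at 0, the endothelial marker CDH5 was at no more than 1.04, and the most abundant gene of the 11 markers of other cells was COL1A1, at 689 to 1807. The 13 prostate and epithelial markers summed to 34452 and 39432 normalized counts after siCAG and 30113 and 18137 after siGGGGGC at 24 and 48 h, with 2 and 3 of them at 0. Their part in the results was not tested. The summed markers of other cells were 1166 and 2036 normalized counts after siCAG and 1167 and 959 after siGGGGGC at 24 and 48 h. In these bulk libraries fewer cells of a kind and less RNA per cell cannot be told apart.

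A large part of the transcriptome differed between the siRNAs. Of 15136 genes tested with edgeR's quasi-likelihood test, with time point as block, 1377 (9.1%) were lower and 1172 (7.74%) higher after siCAG than after siGGGGGC at an adjusted p under 0.05, together 16.8% of the genes. At least 2-fold differences were seen in 636 of the former and 748 of the latter, and at least 4-fold ones in 156 and 104. All 2549 called genes differed in the same direction at both times. The test takes departures between the times as spread, so genes with opposite signs could hardly be called. The count is therefore no separate evidence, and it was not made over all tested genes. The difference was the larger at 48 h in 81.4% of the lower and 77.0% of the higher genes. Across all tested genes the single-time log2 ratios had a Pearson correlation of 0.51, a description over genes, which are not independent replicates. Relative to siNT1, which the fitted values share, the 1377 lower genes had a median log2 fold change of -0.37 after siCAG and 0.55 after siGGGGGC, and the 1172 higher genes 0.18 after siCAG and -0.98 after siGGGGGC. These counts depended on single libraries. Leaving out the siCAG library of 24 h left 484 lower and 512 higher genes, and leaving out that of 48 h left 124 and 176. Without the siGGGGGC library of 24 h the counts were 2235 and 2261, and without that of 48 h they were 533 and 597. In a principal component analysis of the 8 PC3 libraries the siGGGGGC library of 48 h lay farthest out on the leading component (42.2% of the variance) and the siCAG library of 48 h on the next (22.7%).

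**Figure D1:**
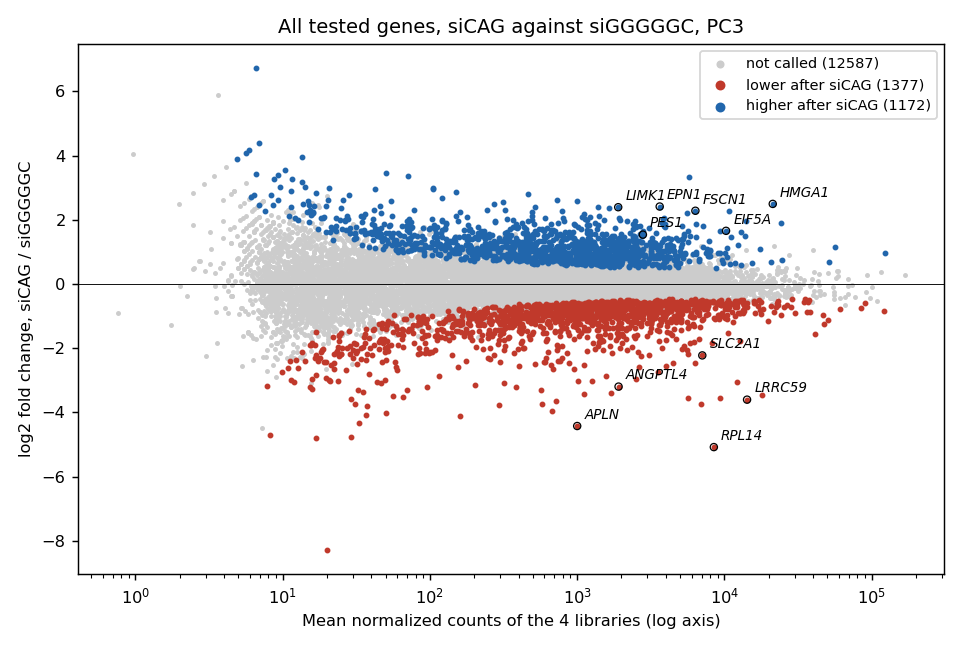
Each point is 1 of the 15136 tested genes, with the mean normalized counts of the 4 libraries on the x axis (log scale) and the log2 fold change of siCAG over siGGGGGC on the y axis. Red points (1377 genes) were lower and blue points (1172 genes) higher after siCAG at an adjusted p under 0.05, and RPL14, at -5.08, lies lowest among the abundant genes.

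The 12 genes with the lowest ratios among called genes with a mean over 1000 normalized counts had log2 fold changes between -3.02 and -5.08, and 9 of them hold at least 4 CTG in a row, which 2.75% of tested genes with a coding transcript do. GCCCCC lies in the 3′ UTR of 6 of the 12, compared with 32.6% of tested genes with a 3′ UTR. RPL14, a protein of the large ribosomal subunit (chromosome 3, 40457292 to 40462372, hg38), had 570 and 405 normalized counts after siCAG and 17979 and 14989 after siGGGGGC at 24 and 48 h. The 2 siCAG values lie far below both siGGGGGC values, and the siNT1 libraries, at 16272 and 17587, lie with the latter. The log2 fold change was -5.08 (SE 0.21, edgeR adjusted p = 0.000127). The annotation lists 6 pseudogenes of RPL14, so some reads may be shared with them.

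APLN, which encodes the peptide ligand apelin, stood at 92.9 and 73.3 normalized counts after siCAG against 1250 and 2590 after siGGGGGC. The groups do not overlap, and the 48 h siGGGGGC library holds the highest value. The log2 fold change of -4.43 (SE 0.35, adjusted p = 0.000974, edgeR) splits into -3.23 for siCAG and 1.19 for siGGGGGC relative to siNT1. Its 3′ UTR holds both kinds of sequence, the 7 CTG shown above and 5 GCCCCC.

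LRRC59, a membrane protein of the endoplasmic reticulum (ER), had 2756 and 1649 normalized counts after siCAG and 28182 and 24472 after siGGGGGC, a log2 fold change of -3.61 (SE 0.20, edgeR adjusted p = 0.000391). MLEC, malectin, an ER lectin that binds glucosylated glycans, had 3712 and 2424 against 31064 and 35332, a log2 fold change of -3.45 (SE 0.22, adjusted p = 0.000391). PRKCSH, the beta subunit of glucosidase II, which trims glycans in the ER, had 910 and 870 against 12822 and 8140, a log2 fold change of -3.54 (SE 0.22, adjusted p = 0.000391). In each of these genes every siCAG value was less than every siGGGGGC value. ICMT, the methyltransferase that finishes prenylated proteins, had 1925 and 1099 against 17584 and 16981 (log2 fold change -3.54, SE 0.24, adjusted p = 0.00056). HTRA1, a secreted serine protease, had 345 and 232 against 2624 and 3565 (log2 fold change -3.41, SE 0.26, adjusted p = 0.000758). The chaperone MESDC2 (5 CTG in the coding sequence) and PLEKHB2 (4 in the 3′ UTR) had log2 fold changes of -3.42 and -3.73. PTTG1IP and PAPSS2, at -3.06 and -3.02, have no run longer than 2 CTG.

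ANGPTL4, a secreted inhibitor of lipoprotein lipase that responds to hypoxia and fasting, differed from the rest of these 12. It had 401 and 316 normalized counts after siCAG, near the 350 and 257 of the siNT1 libraries, and 2017 and 4916 after siGGGGGC. The siGGGGGC libraries are therefore the ones apart. Its log2 fold change was -3.20 (SE 0.41, adjusted p = 0.00428, edgeR), with 0.24 for siCAG and 3.44 for siGGGGGC relative to siNT1.

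**Figure D2:**
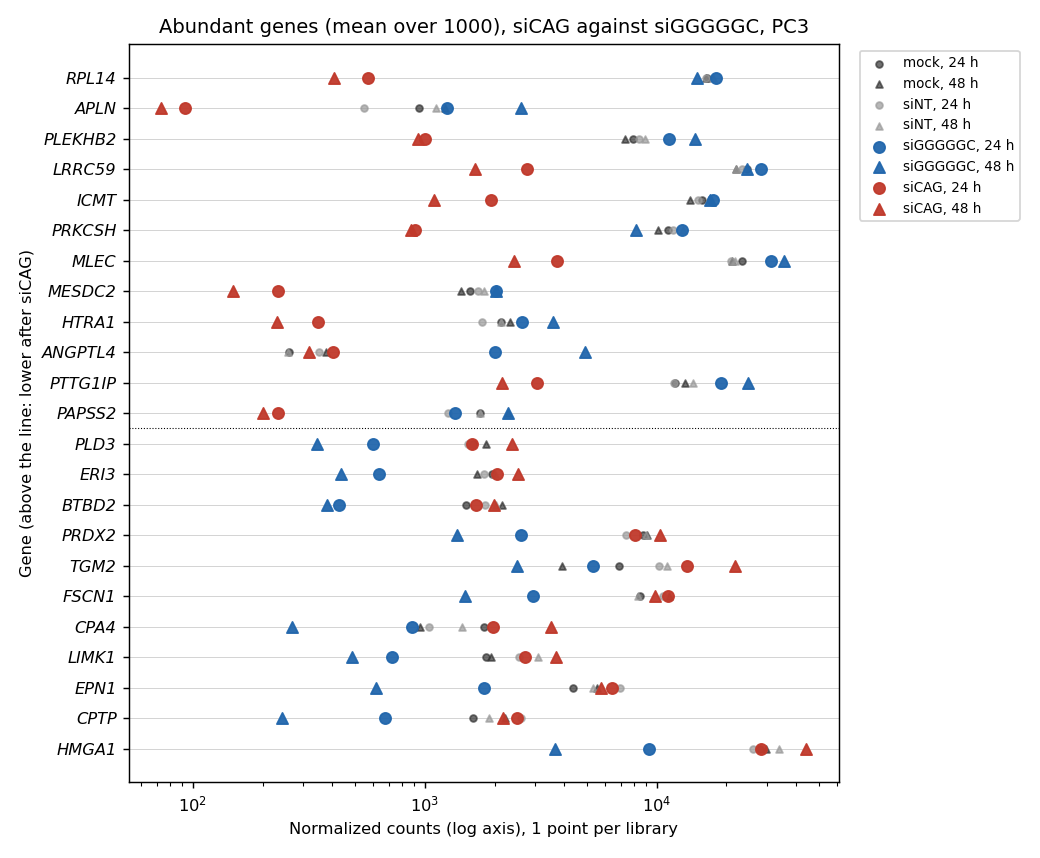
Normalized counts (log axis) of 23 called genes with a mean over 1000, the 12 with the lowest ratios and 11 of the 12 with the highest, 1 point for each of the 8 PC3 libraries, with circles for 24 h and triangles for 48 h, and red for siCAG, blue for siGGGGGC, light grey for siNT and dark grey for mock. Above the dotted line the red points lie to the left of the blue ones, for RPL14 at 570 and 405 against 17979 and 14989, and below it to the right, for HMGA1 at 28068 and 44252 against 9305 and 3640.

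Of the 12 genes with the highest ratios among called genes with a mean over 1000 normalized counts, 11 are described here. They had log2 fold changes between 2.07 and 2.49, and 9 of the 11 hold GCCCCC in the 3′ UTR, compared with 32.6% of tested genes with a 3′ UTR. None of the 11 holds 4 or more CTG in a row, which 2.75% of tested genes with a coding transcript do. Relative to siNT1 their log2 fold changes were -1.21 to -2.42 after siGGGGGC and -0.07 to 1.16 after siCAG. CPA4 holds the smallest of the former and the largest of the latter, and neither passed the test (edgeR adjusted p = 0.166 and 0.378). HMGA1, a chromatin protein that bends AT-rich DNA, had 28068 and 44252 normalized counts after siCAG and 9305 and 3640 after siGGGGGC at 24 and 48 h. The groups do not overlap, and the 2 siRNAs moved apart between the times. The log2 fold change was 2.49 (SE 0.43, edgeR adjusted p = 0.0115), and without the siCAG library of 48 h the adjusted p rose to 0.0696. The annotation lists 7 pseudogenes of HMGA1.

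EPN1, epsin, an adaptor of clathrin-coated pits whose 3′ UTR holds 7 GCCCCC, had 6401 and 5731 normalized counts after siCAG and 1806 and 616 after siGGGGGC (log2 fold change 2.41, SE 0.39, edgeR adjusted p = 0.00897). FSCN1, the actin-bundling protein fascin, with 6 GCCCCC, had 11147 and 9857 against 2934 and 1493 (log2 fold change 2.28, SE 0.29, adjusted p = 0.00434). BTBD2, with 4 GCCCCC, had 1671 and 1982 against 427 and 378 (log2 fold change 2.17, SE 0.20, adjusted p = 0.00165). In all 3 genes every siCAG value exceeded every siGGGGGC value, and the log2 fold change of siCAG relative to siNT1 lay between -0.07 and 0.16. TGM2, a transglutaminase that crosslinks proteins, had 13525 and 21859 against 5304 and 2490 normalized counts, a log2 fold change of 2.26 (SE 0.40, adjusted p = 0.012). The other genes of this set were CPTP, a ceramide-phosphate transfer protein, LIMK1, a kinase of the actin regulator cofilin, CPA4, a carboxypeptidase, PRDX2, a peroxiredoxin, ERI3 and PLD3. LIMK1 and CPA4 hold no GCCCCC in the 3′ UTR. The adjusted p of EPN1 rose to 0.0591, that of CPTP to 0.0579, that of TGM2 to 0.0656 and that of CPA4 to 0.153 without the siCAG library of 48 h, and without the siGGGGGC library of 48 h CPA4 and TGM2 missed the threshold at 0.0925 and 0.0506. The 12 lower genes passed the threshold without any 1 of the 4 libraries.

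The study picked 10 abundant genes with GCCCCC in the 3′ UTR for their decrease after siGGGGGC in HeyA8 cells. The choice was not made on the PC3 libraries. It favours genes that siGGGGGC lowers, so the 10 do not stand for all genes with GCCCCC. In PC3 cells all 10 were higher after siCAG than after siGGGGGC, with a median log2 fold change of 1.83, whereas the median of all tested genes was 0.00051. POLR2E and POLR2K, subunits of the nuclear RNA polymerases, had log2 fold changes of 1.87 (SE 0.25, edgeR adjusted p = 0.00493) and 1.97 (SE 0.22, adjusted p = 0.00283). PES1, a factor of large-subunit ribosome assembly, had 3954 and 4361 normalized counts after siCAG and 1590 and 1287 after siGGGGGC, a log2 fold change of 1.54 (SE 0.16, adjusted p = 0.00238). EIF5A, a translation factor, had 15912 and 14908 against 7246 and 3001, a log2 fold change of 1.66 (SE 0.30, adjusted p = 0.0131). The siCAG values of EIF5A lie at the siNT1 values of 15914 and 15755. RHOC, a small GTPase, and APEX1, a DNA repair endonuclease, were at 2.07 and 1.75, and PPP1R14B and the centromere protein CENPB at 1.79 and 1.41. Without the siCAG library of 48 h, 3 of the 10 passed the test, and without the siCAG library of 24 h or the siGGGGGC library of 48 h, 9 did.

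Genes with longer CTG runs had lower RNA after siCAG than after siGGGGGC. Of 13381 tested genes with a coding transcript, 60 (0.448%) carry a run of 6 or more CTG, 52 in the coding sequence and 8 in the 3′ UTR. After siCAG 45 of the 60 were lower and none was higher than after siGGGGGC, where 9.96% of the 13381 genes were lower and 7.83% higher. Their median log2 fold change was -1.98, against -0.01 in the genes with shorter runs. By length, the median was 0.01 for 11197 genes with at most 2 CTG, -0.09 for 1816 genes with 3, -0.35 for 247 genes with 4, -0.80 for 61 genes with 5, -2.01 for 47 genes with 6 or 7 and -1.21 for 13 genes with 8 or more. The last class thus lay between the classes of 5 and of 6 or 7, with few genes. At single times the genes with at least 6 CTG had medians of -1.66 at 24 h and -1.95 at 48 h. Relative to siNT1 their median was -1.75 after siCAG and 0.17 after siGGGGGC. The 15 genes of the 60 that were not called had a median of 47.1 normalized counts, compared with 632 in the 45 called ones, and log2 fold changes from -1.04 to 0.51. For the 8 genes with the run in the 3′ UTR the median was -0.88, and 5 were lower. Runs of CAG, the same repeat on the other strand, gave a median of 0.06 in 114 genes with at least 6, of which 7 were lower and 12 higher.

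The 5 genes with the longest runs ranged widely. RPL14, with 10 CTG, was at -5.08 on the log2 scale. DMPK, the kinase gene whose expanded 3′ UTR repeat causes myotonic dystrophy, has 20 CTG in the reference and had 269 and 322 normalized counts after siCAG and 562 and 755 after siGGGGGC (log2 fold change -1.15, SE 0.18, edgeR adjusted p = 0.00816). CASK, a scaffold kinase with 16 CTG in the 3′ UTR, was at -0.83 (SE 0.16, adjusted p = 0.017). LRP8, a lipoprotein receptor with 11 CTG in the coding sequence, was at -2.23 (SE 0.21, adjusted p = 0.00181). LTBP3, a binding protein of latent TGF-beta with 10 CTG, had 522 and 388 against 1469 and 526 normalized counts, and its log2 fold change of -1.04 (SE 0.35, adjusted p = 0.0797) missed the threshold.

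GCCCCC in the 3′ UTR went with higher RNA after siCAG, that is with lower RNA after siGGGGGC, and the shift was small over all carriers. Of 13372 tested genes with an annotated 3′ UTR, 4360 (32.6%) hold GCCCCC on the sense strand. Among these 401 (9.20%) were lower and 544 (12.5%) higher, while of the 9012 genes without it 932 were lower and 504 higher. Over all 13372 genes 9.97% were lower and 7.84% higher. The median log2 fold change was 0.08 with GCCCCC and -0.05 without, a shift of 0.12. By number of sites the median was 0.02 for 2442 genes with 1 GCCCCC, 0.11 for 1020 genes with 2, 0.20 for 429 genes with 3, 0.16 for 218 genes with 4 and 0.34 for 251 genes with 5 or more. In the last class 66 genes were higher and 19 lower. At 24 h alone the shift came to 0.033, and at 48 h alone to 0.27. Genes with GCCCCC have longer 3′ UTRs (median 2076 against 1243 bases) of higher GC content (50.8% against 39.4%), and after a regression on length and GC content the shift was 0.15. The G was also placed at each of the other 5 positions. The 5 resulting motifs, namely CGCCCC with the G at position 2, CCGCCC at position 3, CCCGCC at position 4, CCCCGC at position 5 and CCCCCG at position 6, lie in 15.6% to 23.6% of the 3′ UTRs and partly overlap GCCCCC, and their shifts lay between 0.0097 and 0.062. Each of these shifts was below 0 at 24 h and between 0.11 and 0.22 at 48 h. GCCCCC in the coding sequence alone gave a median of -0.06 in 3095 genes, against -0.04 in genes with none in either part.

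Genes that hold both kinds of sequence were described apart. Of the genes with at least 6 CTG, 29 also carry GCCCCC in the 3′ UTR and had a median of -1.15 on the log2 scale, with 19 lower, and the 31 without had -2.59, with 26 lower. In neither class was a gene higher. Relative to siNT1 the medians after siCAG were -1.43 and -2.59, and after siGGGGGC -0.08 and 0.21.

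**Figure D3:**
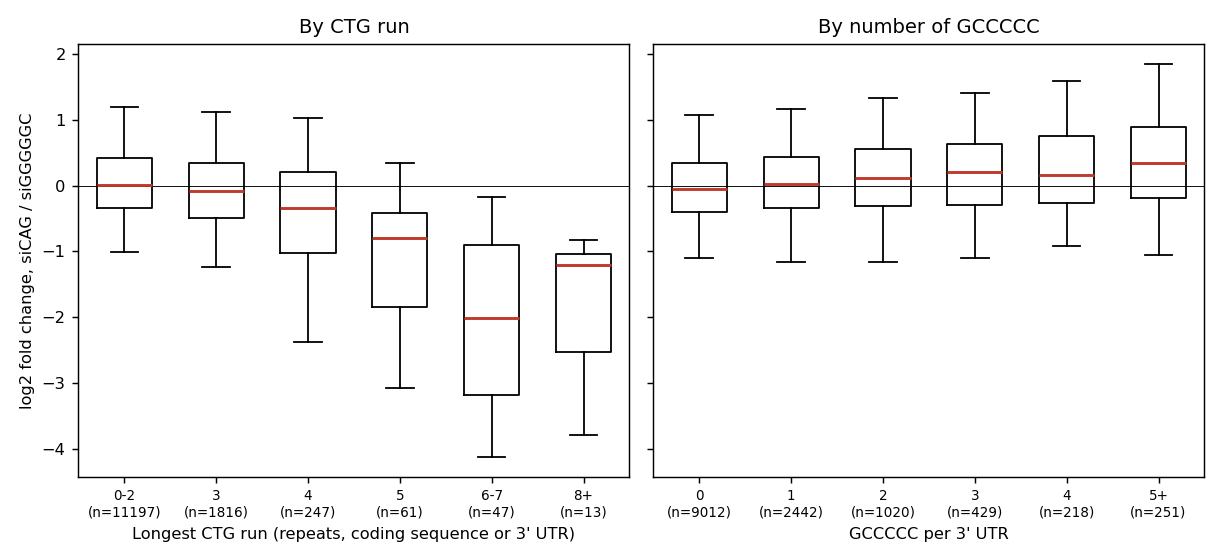
Log2 fold changes of siCAG over siGGGGGC in PC3 cells, by the longest CTG run of the gene (left, with the number of repeats on the x axis) and by the number of GCCCCC in its 3′ UTR (right), with boxes for the quartiles, red lines for medians, whiskers from the 5th to the 95th percentile and the number of genes under each box. The medians fall from 0.01 to -2.01 at 6 or 7 CTG, and rise from -0.05 to 0.34 at 5 or more GCCCCC.

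Glycolysis and hypoxia genes made up the gene list with the largest share of calls apart from the 10 genes above. Of 36 tested members 24 (66.7%) were lower after siCAG than after siGGGGGC and none was higher, with a median log2 fold change of -0.93, compared with 16.8% called and a median of 0.00051 over all genes. SLC2A1, the glucose transporter GLUT1, had 2322 and 2358 normalized counts after siCAG and 6700 and 16952 after siGGGGGC at 24 and 48 h. The groups are far apart, and the siNT1 libraries lie at 2826 and 3241, close to siCAG. Its log2 fold change was -2.23 (SE 0.30, edgeR adjusted p = 0.00519). ENO2, an enolase, had 2005 and 2279 against 5632 and 8765 (log2 fold change -1.72, SE 0.17, adjusted p = 0.00197), and SLC16A3, the lactate exporter MCT4, 6735 and 4763 against 18617 and 21180 (log2 fold change -1.79, SE 0.21, adjusted p = 0.00314). LDHA, lactate dehydrogenase, PGK1, a kinase of glycolysis, and HK2, a hexokinase, were called at -0.76, -1.12 and -1.33, and EGLN3, a prolyl hydroxylase that marks HIF for degradation, at -2.80. Relative to siNT1 the list median was -0.02 after siCAG and 0.88 after siGGGGGC, and relative to mock -0.34 and 0.49. For siCAG over siGGGGGC the list median was -0.52 at 24 h and -1.27 at 48 h, and -0.52 to -1.25 with 1 library left out. Without the term for time 12 members were lower. The number of lower members was 3 without the siCAG library of 48 h, 13 without that of 24 h, 29 without the siGGGGGC library of 24 h and 10 without that of 48 h.

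Of 38 stress genes of the ER and of amino acid supply 15 were lower after siCAG and 2 higher, against 9.1% and 7.74% of all tested genes, and 21 were not called. The median was -0.49. PSAT1, an enzyme of serine synthesis, had 1222 and 915 normalized counts after siCAG and 2849 and 2499 after siGGGGGC (log2 fold change -1.33, SE 0.16, edgeR adjusted p = 0.00366). PDIA6 and DNAJB11, folding factors of the ER, were at -1.19 (SE 0.15, adjusted p = 0.00406) and -1.09 (SE 0.14, adjusted p = 0.00434), and HSPA5, the ER chaperone BiP, was called at -0.91. ATF4, the transcription factor of the integrated stress response, was called in the other direction at 0.75. Relative to siNT1 the list median was -0.36 after siCAG and 0.18 after siGGGGGC. Of 31 heat shock genes 8 were lower and 1, HSF1, their transcription factor (1.43), was higher. Of 37 genes of ER glycan processing 8 were lower, among them NUCB1, a calcium-binding protein with 4 CTG (-3.01), and 1 was higher. The median of the glycan list was -0.34. It was -0.18 without the siGGGGGC library of 48 h and -0.40 without that of 24 h. Leaving out the siCAG library of 48 h left 1 lower stress gene, no heat shock gene and 4 glycan genes, and leaving out that of 24 h left 7, 3 and 6.

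Cell cycle genes were compared with the 9.1% lower and 7.74% higher among all tested genes. Of 46 DNA replication genes 14 were lower and none higher (median -0.39), and of 45 mitosis genes 14 were lower and 1 higher (median -0.41). At 24 and 48 h the replication medians were -0.53 and -0.14, and the mitosis medians -0.18 and -0.86. POLE, the catalytic subunit of DNA polymerase epsilon, had 2550 and 2015 normalized counts after siCAG and 5347 and 5055 after siGGGGGC (log2 fold change -1.19, SE 0.17, edgeR adjusted p = 0.00561). BIRC5, survivin, a subunit of the chromosomal passenger complex, had 6476 and 4422 against 13182 and 18503 (log2 fold change -1.53, SE 0.24, adjusted p = 0.00791). In both genes all siCAG values lie below all siGGGGGC values. CDC6 and ORC6, which license replication origins, were at -1.06 and -1.07. Relative to siNT1 the replication list had medians of -0.49 after siCAG and -0.12 after siGGGGGC, and the mitosis list -0.59 and -0.11. Of 39 histone genes 5 were lower (median -0.56), and their medians relative to siNT1 were -0.05 and 0.59. Without the siCAG library of 48 h no member of these 3 lists passed the test. Without the siCAG library of 24 h 7, 11 and 1 members were lower, and without the siGGGGGC library of 48 h 11, 4 and 1. Without the siGGGGGC library of 24 h 10, 17 and 10 were lower, and 4 replication genes and 1 mitosis gene were higher. The replication median was then -0.033, and with another library left out it was -0.33 to -0.58. The mitosis median ran from -0.21 without the siCAG library of 48 h to -0.83 without that of 24 h, and the histone median was -0.17 without the siGGGGGC library of 48 h.

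Sterol and fatty acid genes gave 10 lower and 1 higher of 35 (median -0.44), where 9.1% of all tested genes were lower and 7.74% higher. Their median was -0.24 to -0.57 with 1 library left out, and 3 were lower without the term for time. INSIG1, which holds the sterol sensor in the ER, had 1308 and 1720 normalized counts after siCAG and 2879 and 4992 after siGGGGGC (log2 fold change -1.32, SE 0.21, edgeR adjusted p = 0.00855). ELOVL5, an elongase of polyunsaturated fatty acids, was called at -1.07. In the lysosome list 10 members were lower and 4 higher of 51, with a median of -0.10 (-0.03 to -0.22 with 1 library left out). ARSB, a sulfatase with 5 CTG in its coding sequence, had 94.8 and 66.3 against 1077 and 1088 normalized counts (log2 fold change -3.75, SE 0.24, adjusted p = 0.000391). SMPD1, acid sphingomyelinase, was at -2.52 (SE 0.18, adjusted p = 0.000604) and LAMP1, a lysosomal membrane protein, at -1.37. Without the siCAG library of 48 h no sterol gene and 5 lysosomal genes were lower.

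The list of noncoding RNAs lay on the other side. It holds host genes of small nucleolar RNAs, many of which are degraded while they are translated, and others such as NEAT1 and MALAT1. Of 21 members 8 were higher and 1 lower after siCAG, with a median log2 fold change of 0.72, where 7.74% of all genes were higher. With 1 library left out the median was 0.47 to 0.87. NEAT1, the RNA scaffold of paraspeckles, had 8353 and 7305 normalized counts after siCAG and 3775 and 1872 after siGGGGGC (log2 fold change 1.55, SE 0.20, edgeR adjusted p = 0.00442). SNHG3 had 1570 and 2041 against 697 and 524 (log2 fold change 1.55, SE 0.22, adjusted p = 0.00672), GAS5 was called at 1.01 and MALAT1 at 0.85. Relative to siNT1 the list median was 0.23 after siCAG and -0.48 after siGGGGGC. Of 38 interferon-induced and RNA-sensing genes 8 were higher and 1 was lower, with a median of 0.35 (0.19 to 0.31 with 1 library left out). IFI44L had 541 and 275 normalized counts after siCAG and 107 and 56.9 after siGGGGGC (log2 fold change 2.30, SE 0.26, adjusted p = 0.00263), and OAS2, an oligoadenylate synthetase that senses double-stranded RNA, was at 1.49 (SE 0.19, adjusted p = 0.00395). Relative to siNT1 IFI44L was at -0.03 after siCAG and -2.33 after siGGGGGC. Leaving out the siCAG library of 48 h left 1 noncoding and 2 interferon genes higher, and leaving out that of 24 h left 5 and 4.

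In the list of small RNA processing, RISC and RNA decay, 6 of 21 were lower and 2 higher, against 9.1% and 7.74% of all tested genes. No member was lower without the siCAG library of 48 h, 1 was without that of 24 h or without the siGGGGGC library of 48 h, and 2 were with the 4 libraries alone. AGO2, the Argonaute that cuts target RNA, had 2178 and 2824 normalized counts after siCAG and 3989 and 5162 after siGGGGGC (log2 fold change -0.87, SE 0.14, edgeR adjusted p = 0.00875). DROSHA, which cuts primary miRNAs, was higher after siCAG at 1.33 (SE 0.18, adjusted p = 0.00537), and the decapping enzyme DCP2 lower at -1.79 (SE 0.35, adjusted p = 0.0173). Among p53 targets 3 of 28 were lower and 2 higher, FAS, a death receptor (1.86), and CDKN1A, the cell cycle inhibitor p21 (0.99). CDKN1A had 1259 and 854 against 904 and 281 normalized counts, so its groups overlap. In the list of apoptosis and necroptosis 5 of 38 were lower and 2 higher, FAS and the BH3 protein BMF (2.05). These counts rested on single libraries. Without the siCAG library of 48 h no p53 target was lower and 1 was higher, and without the siGGGGGC library of 24 h 6 were lower and 7 higher. In the apoptosis list no member was lower without either siCAG library, 1 was without the siGGGGGC library of 48 h, and 5 were lower and 10 higher without that of 24 h.

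The other lists are given beside the 9.1% lower and 7.74% higher among all tested genes. Of 79 ribosomal proteins RPL14 alone was lower and none was higher in the main edgeR fit (median 0.06). DESeq2 and the fit to the 4 libraries alone each called 1 higher. Of 76 respiratory chain subunits 1, NDUFS1 (-0.56), was lower. Ribosome biogenesis gave 1 lower and 4 higher of 52, RNA polymerase subunits 4 and 5 of 31, translation initiation 2 and 4 of 36, splicing 4 and 3 of 57, and the proteasome 8 and none of 44 (median -0.32). With the 4 libraries alone, or without the siCAG library of 48 h, no proteasome gene passed the test, and without the siCAG library of 24 h or the siGGGGGC library of 48 h 1 did. The ribosomal protein median ran from -0.14 without the siCAG library of 48 h to 0.24 without that of 24 h. Ribosome biogenesis gave none lower and 2 higher without either siCAG library or the siGGGGGC library of 48 h, and NDUFS1 was not called without any of these 3. The RNA polymerase list fell to 1 lower and 2 higher without the siCAG library of 24 h and to none and 2 without that of 48 h, and the matrix and integrin list to 1 and 4 and to none. The aminoacyl-tRNA synthetases gave 3 lower of 23, led by GARS, with 5 CTG (-1.41). Their median was -0.04, and -0.09 to 0.03 with 1 library left out. NF-kB targets gave 4 lower and 1 higher of 28, matrix and integrin genes 3 and 8 of 49, YAP and TEAD targets 4 and 3 of 25, and MAPK feedback genes 4 and 2 of 33. Without the siCAG library of 24 h or that of 48 h the NF-kB and YAP and TEAD lists each had 1 lower gene. The MAPK list then had 1 lower and 1 higher gene, or none and 1. The splicing list had 1 and 2, or none and 1, and of the translation initiation genes none was lower and 1 or none was higher. Leaving out the siGGGGGC library of 24 h instead raised most counts, to 4 lower and 20 higher matrix and integrin genes, 1 and 7 of ribosome biogenesis, 1 and 5 ribosomal proteins, 1 and 4 of the respiratory chain, 17 and 1 of the proteasome, 4 and 7 RNA polymerase subunits, 4 and 7 of translation initiation and 4 and 8 of splicing. The YAP and TEAD list then had 6 and 5, the MAPK list 6 and 4, the NF-kB list 5 and 2, and the tRNA synthetases 4 and 2. None of 4 metallothioneins was called in the main edgeR fit, with log2 fold changes from -1.85 to 0.37. MT2A was at -0.30 and MT1X at 0.37. DESeq2 and the fit to the 4 libraries alone each called 1 lower. Of the 11 tested prostate and epithelial markers CDH1, E-cadherin, with 5 CTG, was lower and HOXB13 higher (1.48, edgeR adjusted p = 0.00895). CDH1 had 242 and 230 against 1156 and 923 normalized counts (log2 fold change -2.13, SE 0.19, edgeR adjusted p = 0.00139). The median of the 11 was 0.45, and 0.22 to 0.76 with 1 library left out. Of 5 tested markers of other cells 1 was lower, the monocyte marker CD14, at 0 and 1.98 against 5.01 and 60.01 normalized counts. It was not called without either siCAG library or without the siGGGGGC library of 48 h, which holds the high value.

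**Figure D4:**
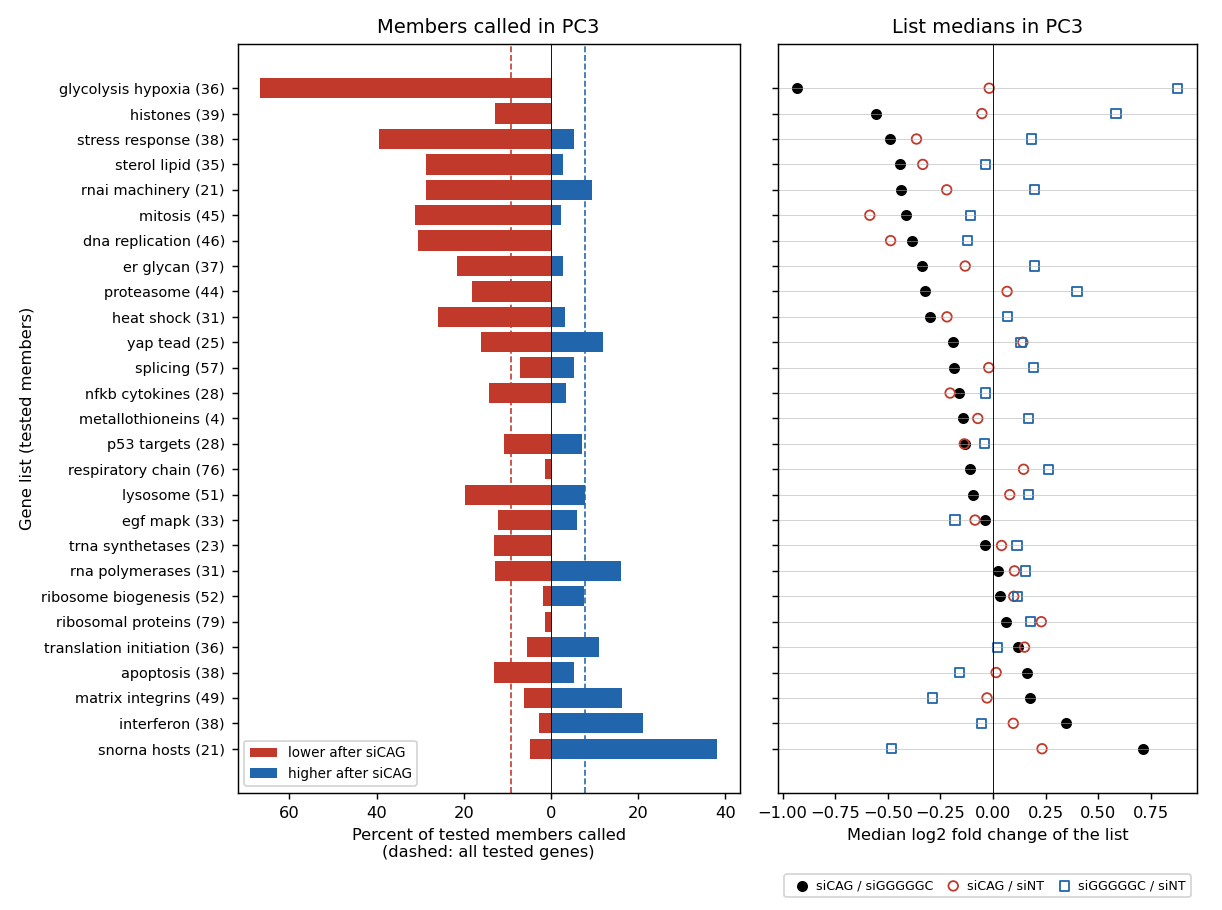
Left, the percent of tested members of each gene list that were lower (red, to the left) or higher (blue, to the right) after siCAG, with dashed lines at the 9.1% and 7.74% of all tested genes. Right, the median log2 fold change of each list for siCAG over siGGGGGC (black) and for each siRNA over siNT (open symbols), where the glycolysis and hypoxia list stands at -0.93, -0.02 and 0.88.

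HeyA8 cells, whose 8 libraries are shared with none of the above, were used to see where PC3 cells differ. In HeyA8 cells 1148 (8.28%) of 13872 tested genes were lower and 1138 (8.2%) higher after siCAG, together 16.5%, from 1 library per siRNA and time as well. With the 4 siCAG and siGGGGGC libraries of HeyA8 cells alone 265 were lower and 96 higher. The shared calls below rest on the fit to the 8 HeyA8 libraries. Of 13192 genes tested in both lines, 733 were called in the same direction, 345 lower and 388 higher, which is 31.9% of the 2298 PC3 calls and 33.4% of the 2195 HeyA8 calls, and 19 were called in opposite directions. Of the 12 PC3 genes with the lowest ratios 11 were also lower in HeyA8 cells, RPL14 at -6.02 and APLN at -7.03, and of the 11 described with high ratios 10 were also higher. The 51 genes with at least 6 CTG tested in HeyA8 cells had a median of -1.93, with 34 lower and none higher, against -0.04 with shorter runs. Genes with 5 or more GCCCCC had a HeyA8 median of 0.69, against -0.17 in genes without it. For genes with any GCCCCC it was 0.23, and for those with each of the other 5 motifs 0.12 to 0.25.

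An interaction of siRNA and line, fitted to all 16 libraries, asked where the lines differ. It passed the threshold in 493 of 15887 genes (3.1%), with the log2 fold change lower in PC3 cells in 203 and higher in 290. With the 8 siCAG and siGGGGGC libraries of both lines alone it was called in 12 genes, so the counts that follow rest on the fit to all 16. Among 46 DNA replication genes 18 differed between the lines, all with the weaker decrease in PC3 cells. This list had a median of -0.39 in PC3 cells (-0.033 without the siGGGGGC library of 24 h) and -2.65 in HeyA8 cells, where 39 members were lower. CDC6 was at -1.06 in PC3 and -5.07 in HeyA8 cells. Among mitosis genes 7 of 45 differed, with medians of -0.41 and -2.73. The HeyA8 values of these lists were far lower at 48 h than at 24 h, with mitosis medians of -1.44 at 24 h and -6.26 at 48 h and replication medians of -2.15 and -3.69. BIRC5 had 2728 and 25.8 normalized counts after siCAG in HeyA8 cells and 6418 and 6829 after siGGGGGC at 24 and 48 h, so the siCAG library of 48 h stands apart. Glycolysis and hypoxia genes, with 24 lower in PC3 cells, gave 1 lower and 3 higher of 35 in HeyA8 cells (median -0.23), and 4 differed by the interaction, HK1, HK2, ADM and ANGPTL4. In HeyA8 cells SLC2A1 was at -0.44 on the log2 scale (edgeR adjusted p = 0.39).

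**Figure D5:**
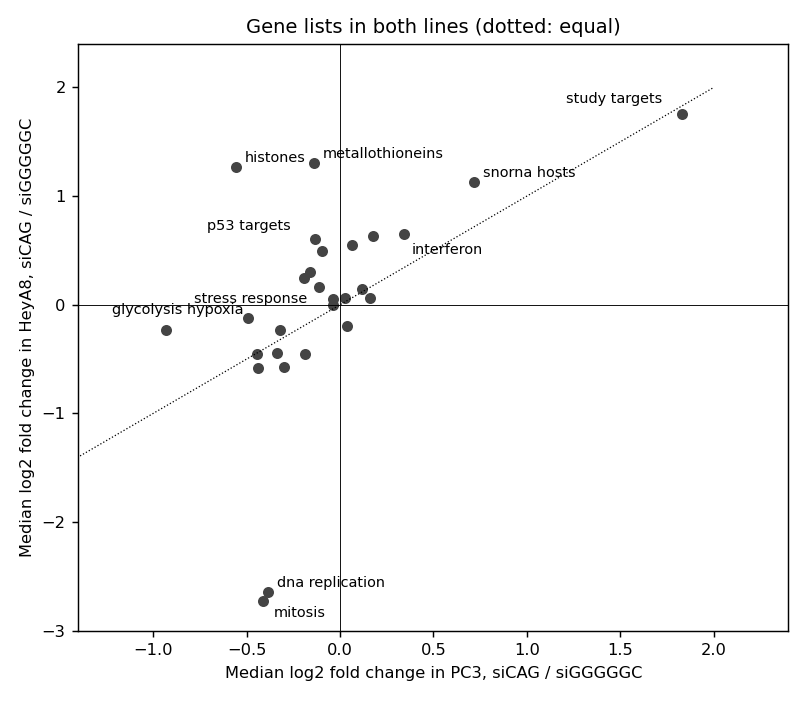
Each point is 1 gene list, with its median log2 fold change of siCAG over siGGGGGC in PC3 cells on the x axis and in HeyA8 cells on the y axis, and the dotted line marks equal values. DNA replication and mitosis lie far below the line, at -2.65 and -2.73 in HeyA8 cells, where the mitosis median was -1.44 at 24 h and -6.26 at 48 h, and glycolysis and hypoxia is the leftmost list, at -0.93 in PC3 cells.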

How the data were processed

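The authors made paired-end libraries from total RNA depleted of rRNA, trimmed the reads, aligned them to hg38 with STAR and counted reads on exons per gene with HTSeq, per the submitters' processing notes and the study's methods. The deposited values are raw counts for 26485 genes, with gene coordinates and lengths beside them. Strand use in counting is not given in the sources used here, so antisense and overlapping genes may share reads. Libraries were grouped by their labels. In edgeR 4.0.16 (R 4.3.3), genes were kept by filterByExpr with siRNA as group, TMM-normalized, and fitted by the quasi-likelihood method with siRNA and time point over all 8 PC3 libraries. The contrast was siCAG minus siGGGGGC, with Benjamini-Hochberg adjustment over 15136 genes. The unexplained coefficient of variation was 18.0%. Standard errors are the fold change divided by the root of F. Normalized counts are TMM-scaled to the mean PC3 library. Log2 ratios at 1 time used a prior count of 2 and have no error. The time point pairs libraries by label, and the changes from 24 to 48 h after siCAG and siGGGGGC had a correlation of 0.097 over genes. The interaction was fitted over 16 libraries.

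Sequences came from GENCODE v44 (hg38), with the transcript of the longest 3′ UTR per gene. Of the symbols, 23161 matched directly, 1370 through a synonym and 1954 did not. miRNAs came from RefSeq. Named genes were the 12 lowest and 12 highest ratios among called genes with a mean over 1000 normalized counts and the same direction at both times, the study's 10 genes, up to 4 genes with the smallest p of each of 30 lists (mean over 100), 3 genes of the interaction and 5 with the longest CTG runs. Other list members were named after their values were seen. Some genes that the rule or the lists name are not reported here. The members and lists were chosen with earlier results of these data known, and no list was tested as a set. P-values measure the spread between these libraries, which may be technical. The fit was tested on simulated data. Alternatives were RLE and upper quartile factors, DESeq2 1.42.0, the older dispersion estimate of edgeR, 2 other filters, no term for time, the 4 libraries alone, a 2-fold threshold, single times, another transcript, other run lengths, and each library left out. Tables and figures were made in Python 3.11.15 (matplotlib 3.10.9, pandas 2.3.3).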

Additional observations from a re-analysis of the deposited data

Results flagged for a closer look

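The effect of siCAG against siGGGGGC differed between PC3 and HeyA8 cells by the interaction test in 493 genes. The 3 of these with the smallest interaction p and over 100 normalized counts in PC3 cells were FAM111B, ZNF367 and CENPK, and among the genes with the largest differences in PC3 cells ANGPTL4 differed as well. Log2 fold changes here are those of the fit to all 16 libraries. FAM111B, a protease of DNA replication forks, had 471 and 101 normalized counts after siCAG and 320 and 219 after siGGGGGC in PC3 cells. Its groups overlap there (log2 fold change -0.15). In HeyA8 cells it had 2.95 and 1.99 after siCAG and 2430 and 1546 after siGGGGGC. Its HeyA8 value of -9.47, a difference of 9.33, thus rests on very few siCAG reads. ZNF367 was at -0.78 in PC3 and -5.58 in HeyA8 cells, a difference of 4.80. CENPK, a kinetochore protein, was at 0.094 and -4.25, a difference of 4.34. ANGPTL4 was at -3.19 in PC3 and 2.09 in HeyA8 cells, a difference of -5.28. Within a group of 2 libraries, the 2 values alone cannot show which library is the outlying one.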

How the results depend on the processing

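With 1 library per siRNA and time, leaving out single libraries moved the PC3 counts of lower and higher genes most among the alternatives run for them. Leaving out 1 of the 4 libraries gave 124 to 2235 lower and 176 to 2261 higher genes, where an arm with 1 library was taken to vary like the other groups. The 4 libraries alone gave 633 lower genes (837 higher), and a 2-fold threshold 636 lower and 748 higher. In HeyA8 cells the 4 libraries alone, an alternative chosen after the data were seen, gave 265 lower and 96 higher genes. The interaction was called in 12 genes with the 8 siCAG and siGGGGGC libraries of both lines alone. Without the term for time, that is without the block on the replicate number, the counts were 951 and 797, and 342 for the interaction. RLE and upper quartile factors, DESeq2 (1700 and 1627), the older dispersion estimate and the other filters kept both counts within 1.5 times. The shift of genes with at least 6 CTG was -1.97. It was -1.61 at 24 h alone, -0.55 with at least 4 and -1.20 with at least 8 CTG, and -1.75 to -2.06 with 1 library left out. That of GCCCCC was 0.051 to 0.22 with 1 library left out and above 0 in the 12 alternatives run for it. Of 122 called named genes, 79 lost significance without the siCAG library of 48 h, 34 without that of 24 h, 26 without the siGGGGGC library of 48 h and 1 without that of 24 h, and 22 lost it with the 4 libraries alone, 14 without the block and none with RLE or DESeq2. Genes that were not called and changed sign were FAM111B (0.085 without the block, and -1.03 to 0.48 with 1 library left out) and CENPK (-0.27 to 0.40 with 1 library left out). The causes were not tested.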
